A study of Homo sapiens with 6 samples.

Results

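Divergent transcripts are long noncoding RNAs that start beside the promoter of another gene and run away from it on the opposite strand, and the annotation names each of them after that partner gene with the ending -DT. The set described here was selected on the measured values: lncRNA genes with a symbol ending in -DT were kept where the mean of the 6 FPKM values (counted fragments scaled by gene length and library total) was at least 1. This rule kept 86 of the 588 -DT lncRNA genes listed, out of 16739 lncRNA genes and 60676 genes in all. Each of the 86 was set beside the partner gene named before -DT, and all 86 partner genes were protein-coding and present in the count table. Just inside the threshold were PRKACB-DT with a mean of 1.02 FPKM and CDC37L1-DT with 1.00 FPKM, and just outside it were PRDM10-DT with 0.998 FPKM and FIGNL2-DT with 0.995 FPKM.

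RNA was sequenced from the neuroblastoma cell line SK-N-BE, kept for 1.5 days in differentiation medium with 10 μM retinoic acid. The 3 si-SCR libraries came from cells that received a scrambled small interfering RNA, and the 3 si-CyCoNP libraries from cells that received a pool of siRNAs against CyCoNP, the cytoplasmic lncRNA whose gene is LINC02381. Both groups thus shared the cell line, the retinoic acid and the time, and each condition was tested in 1 cell line with 1 siRNA pool. The labels do not say whether the replicates were separate cultures, so the p-values measure only the spread between these libraries.

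The 6 libraries held between 3762009 and 4799407 counted fragments. The knock-down left 20, 30 and 12 counts of LINC02381, where the control libraries held 274, 208 and 315, a log2 fold change of -3.78 (SE 0.19, edgeR quasi-likelihood test, adjusted p = 6.84e-14), as the labels state. All 9 neuroblastoma marker genes, among them HAND2, GATA3 and DBH, reached a mean of 1 FPKM, with a summed level of 1478 to 1534 FPKM in si-SCR and 1501 to 1608 FPKM in si-CyCoNP. None of the 3 blood, 2 endothelial and 2 epithelial markers reached a mean of 1 FPKM. Of the 5 Schwann or glial markers 1 did, while SOX10 was listed at 0 in every library. The summed level of that list moved with the group, from 1.47 to 3.37 FPKM in si-SCR and from 8.78 to 14.7 FPKM in si-CyCoNP, and its part in the changes described for the -DT genes was not tested. The fibroblast markers, of which DCN and LUM of 5 reached a mean of 1 FPKM, summed to 5.34 to 9.43 FPKM and 7.99 to 9.85 FPKM.

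Most promoters of mammalian genes start RNA polymerase II in both directions. The polymerase that leaves in the upstream direction usually terminates early, and its RNA is capped but quickly degraded by the nuclear exosome, whereas a minority of these RNAs is stable enough to be annotated as a lncRNA. Because the pair shares a promoter region while the RNAs differ in splicing, polyadenylation and stability, the levels of both genes of a pair can move together or apart.

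In the GENCODE annotation (GRCh38) all 86 members lay on the strand opposite to their partner, on 20 chromosomes. The nearest annotated start sites of a pair were a median of 105.5 bases apart, from -343 (starts that overlap) to 1802 bases. They lay within 300 bases of each other in 74 pairs and within 1000 bases in 84. The 2 pairs beyond that distance were GAPDH-DT at 1013 bases and MRPL20-DT at 1802 bases. By the outermost ends of the genes, rather than the nearest start sites, 74 pairs began within 1000 bases of each other. KIF26A-DT, TRIM8-DT, CHFR-DT, ZNF584-DT and CHKB-DT lay wholly within the outer ends of their partner gene. The members were 187 to 30756 bases long over their merged exons, with a median of 1571 bases against 5513 for the partners, and 31 of them had a single exon. Exons of 22 members overlapped an exon of their own partner on the other strand. Exons of 3 members overlapped another gene on the same strand (UBA6-DT, GARS1-DT and BRINP3-DT), and 4 members lay within 5000 bases downstream of an expressed gene of the same strand (GAPDH-DT, WDR5B-DT, MIF4GD-DT and JTB-DT), so the counts of these 7 are less certain.

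**Figure D1:**
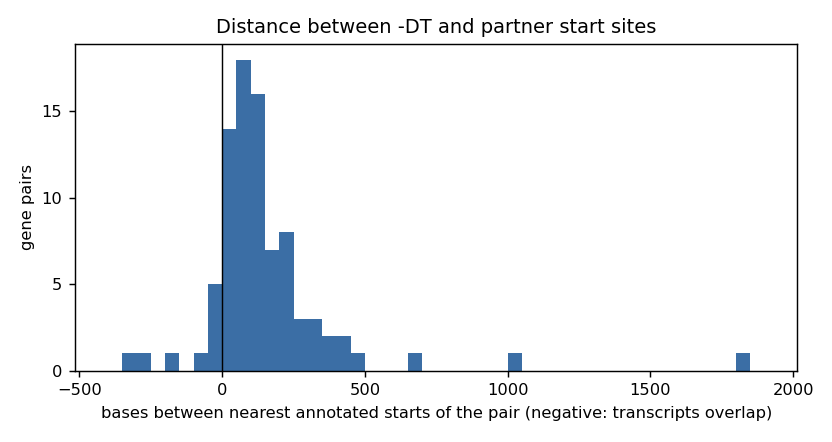
Histogram of the distance in bases between the nearest annotated start sites of each of the 86 -DT genes and its partner, in bins of 50 bases (x axis), with the number of pairs (y axis). Most pairs stand just right of 0, with 74 of 86 within 300 bases.

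Promoter windows of 300 bases from RefSeq, 250 bases before and 50 after the start of the partner gene, were found for 74 of the 86 partners (GRCh38.p14). Windows are printed for the 4 pairs, of the 6 whose -DT gene was called higher in si-CyCoNP, in which the start of the -DT gene falls inside the window, so that both start sites can be placed on the same sequence. Each is written 5′ to 3′ on the strand of the partner. Capitals mark matches to a searched motif on either strand: the CCAAT box (CCAAT, or ATTGG on the other strand), the GC box (GGGCGG or CCGCCC, which can overlap itself) and the ETS motif (CCGGAAG or CTTCCGG).
DNAJC3 promoter: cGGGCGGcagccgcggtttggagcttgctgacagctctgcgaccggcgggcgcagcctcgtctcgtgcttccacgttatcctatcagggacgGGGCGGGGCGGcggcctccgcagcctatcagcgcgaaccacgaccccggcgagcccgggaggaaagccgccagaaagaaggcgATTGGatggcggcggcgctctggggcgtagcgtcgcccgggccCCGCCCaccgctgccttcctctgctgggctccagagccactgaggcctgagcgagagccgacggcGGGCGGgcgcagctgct
CENATAC promoter: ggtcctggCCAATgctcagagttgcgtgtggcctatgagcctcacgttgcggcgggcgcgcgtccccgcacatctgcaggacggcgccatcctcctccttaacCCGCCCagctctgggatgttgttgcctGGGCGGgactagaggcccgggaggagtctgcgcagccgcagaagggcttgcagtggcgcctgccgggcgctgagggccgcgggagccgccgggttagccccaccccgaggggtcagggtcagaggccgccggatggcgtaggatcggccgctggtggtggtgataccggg
ZFAND2A promoter: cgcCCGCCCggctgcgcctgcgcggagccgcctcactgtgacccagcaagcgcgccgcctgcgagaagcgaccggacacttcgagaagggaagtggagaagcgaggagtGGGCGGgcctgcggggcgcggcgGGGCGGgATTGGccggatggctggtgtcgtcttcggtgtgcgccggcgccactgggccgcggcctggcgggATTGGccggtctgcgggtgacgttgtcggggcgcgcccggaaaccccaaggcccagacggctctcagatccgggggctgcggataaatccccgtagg
TFIP11 promoter: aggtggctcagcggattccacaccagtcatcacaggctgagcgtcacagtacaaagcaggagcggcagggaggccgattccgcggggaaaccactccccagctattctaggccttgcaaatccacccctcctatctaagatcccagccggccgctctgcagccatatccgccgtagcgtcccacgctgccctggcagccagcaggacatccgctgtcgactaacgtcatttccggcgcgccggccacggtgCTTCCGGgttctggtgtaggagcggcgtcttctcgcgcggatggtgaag
The DNAJC3 window is chr13:95676889-95677188 on the plus strand, and DNAJC3-DT starts at its base 85 and runs to the left. The CENATAC window is chr11:118997888-118998187 on the plus strand, with the start of CENATAC-DT at base 117. The ZFAND2A window is chr7:1160147-1160446 on the minus strand, with the start of ZFAND2A-DT at base 73. The TFIP11 window is chr22:26512424-26512723 on the minus strand, with the start of TFIP11-DT at base 221, only 30 bases before the RefSeq start of TFIP11. DNAJC3 held 1 CCAAT box and 5 GC boxes, CENATAC 1 and 2, and ZFAND2A 2 and 3, whereas TFIP11 held 1 ETS motif and neither box.

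Across the 74 windows the median GC content was 67.2% and the median number of CpG dinucleotides 28.5, against 58.3% and 14 over the 27305 promoters of the same table. The GC box was found in 70.3% of partner windows against 44.6% of all promoters, and the ETS motif in 32.4% against 10.7%. The CCAAT box was found in 43.2% against 35.7%, the E-box (CACGTG) in 12.2% against 7.43%, and the NRF1 motif (GCATGCGC) in 6.76% against 3.27%. The TATA box (TATAAA) was found in 10.8% against 12%, and the CRE (TGACGTCA) and YY1 (AAGATGGCG) motifs in 2.7% each against 1.98% and 1.85%. Expressed genes were not separated from silent ones among all promoters, and a match says only that the letters are present.

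The members were scarce RNAs. Their mean level had a median of 1.52 FPKM, against 9.84 FPKM for the partners, and the median ratio of a member to its partner was 15.3%. In 10 pairs the -DT gene had the higher mean level, and in 24 it stood below 10% of the level of the partner. The members summed to 6 to 1070 counts over the 6 libraries (median 80), with 49 under 100 counts and 11 with a 0 in at least 1 library. For 8 members the counts of 1 or both groups were at or under 3 in every library. Differences in single members were therefore often not detectable at this depth.

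Only 6 members had a mean above 5 FPKM, with 24 at 2 to 5 FPKM and 56 at 1 to 2 FPKM. KIF26A-DT, which lies within the outer ends of KIF26A, was the most abundant per length. It had 8.06, 6.33 and 10.4 FPKM in si-SCR and 8.57, 8.15 and 7.83 FPKM in si-CyCoNP, against a mean of 70.6 FPKM for KIF26A, a kinesin-like protein gene. Its groups overlapped (log2 fold change -0.10, SE 0.35). NIPBL-DT, beside the gene of the cohesin loader NIPBL, had 5.37, 4.64 and 5.42 FPKM in si-SCR and 6.22, 6.85 and 6.95 FPKM in si-CyCoNP, all higher than in si-SCR, but did not pass the adjusted threshold (log2 fold change 0.30, SE 0.12, edgeR adjusted p = 0.0627). ZNF8-DT, beside a zinc finger gene, had 3.78, 5.10 and 4.25 FPKM against 6.39, 6.69 and 5.97 FPKM, with no overlap and the same adjusted p of 0.0627 (log2 fold change 0.48, SE 0.19). The partners NIPBL and ZNF8 had log2 fold changes of -0.11 and -0.04, with overlapping groups.

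Other members among the 10 with the highest level varied from library to library. TBC1D22A-DT, beside a gene with a Rab GTPase-activating domain, had 3.13, 3.17 and 5.62 FPKM in si-SCR and 9.02, 6.67 and 6.48 FPKM in si-CyCoNP and stood above its partner on average (5.68 against 4.14 FPKM). Its groups did not overlap, and its adjusted p in edgeR was 0.105. NECTIN1-DT, beside the gene of the adhesion molecule nectin-1, had 6.23, 3.56 and 5.6 FPKM against 4.78, 6.30 and 5.53 FPKM, with overlapping groups. MARCHF6-DT, beside a ubiquitin ligase gene of the endoplasmic reticulum, was set apart by 1 library, with 2.84, 2.95 and 3.48 FPKM in si-SCR and 2.54, 6.27 and 2.14 FPKM in si-CyCoNP. GAPDH-DT, beside the glycolytic enzyme gene at a mean of 1929 FPKM, had only 4, 6 and 5 counts in the controls and 14, 10 and 3 after the knock-down, with overlapping groups.

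The share of all counted fragments that fell on the 86 members was 0.0391%, 0.0387% and 0.0417% in the controls against 0.0527%, 0.0557% and 0.0499% after the knock-down, so each si-CyCoNP library lay above each si-SCR library. Exact 95% binomial intervals, which cover counting error only, spanned 0.0367% to 0.0435% over those of si-SCR and 0.0478% to 0.0579% over the si-CyCoNP libraries. The group means were 0.0398% ± 0.00163 and 0.0527% ± 0.00288 (SD, n = 3 each), a ratio of 1.32. Without NIPBL-DT, which had the most counts, they were 0.0362% and 0.0481% and still did not overlap. The members were selected on these same values, and 26 of the 86 had a mean under 1 FPKM in 1 of the groups. No share was computed without those 26. Nor was the share set beside that of the other 1362 lncRNA genes tested, of which 58.0% had a log2 fold change above 0. The 86 partners took 1.38%, 1.42% and 1.46% of the controls against 1.46%, 1.48% and 1.50% of the si-CyCoNP libraries, and these groups overlapped, since si-SCR replicate 3 lay just above si-CyCoNP replicate 1. The shares are scaled by library totals, without the TMM normalisation used in the tests. The median log2 fold change of the partners was -0.02 with TMM and 0.05 by library totals alone. The part of this scaling in the ratio of 1.32 was not tested. In bulk RNA, more RNA per cell and a change in which cells were present cannot be told apart.

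**Figure D2:**
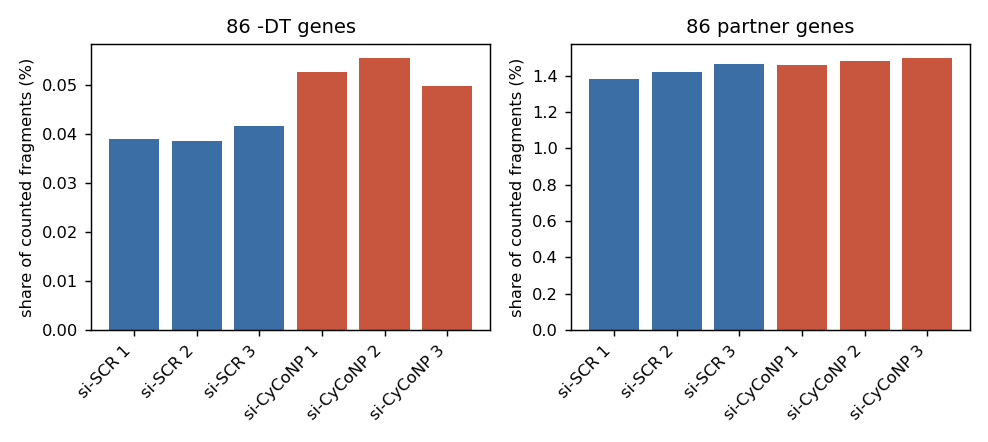
Bars give the share of counted fragments in percent (y axes, starting at 0) for the 86 -DT genes (left) and their 86 partner genes (right) in each of the 6 libraries (x axis). For the -DT genes the si-CyCoNP libraries stand at 0.0499% to 0.0557% and the si-SCR libraries at 0.0387% to 0.0417%.

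In the test of each gene, 11 of the 86 members rose in si-CyCoNP and none fell (edgeR quasi-likelihood test, adjusted p under 0.05). The share that rose, 12.8%, was near the background: of 13966 genes tested, 14.2% rose and 14.2% fell, and of 1448 lncRNA genes 8.29% rose and 3.66% fell. At an unadjusted p under 0.05 the members numbered 20 higher and 0 lower, against 18.9% and 18.5% of all genes tested, and DESeq2 gave 6 higher and 0 lower at the adjusted threshold. The count of 11 dropped to 6 where either si-CyCoNP replicate 1 or si-CyCoNP replicate 2 was left out. Without si-CyCoNP replicate 1 a single member, MAN1B1-DT, passed as lower (log2 fold change -1.73), with 2.61, 2.27 and 1.90 FPKM in si-SCR and 2.67, 0.880 and 0.515 FPKM in si-CyCoNP. Of the 49 members under 100 counts 3 rose and 0 fell, against 2.11% and 1.95% of all genes with so few counts, and of the 37 others 8 rose and 0 fell, against 17.5% and 17.6% of all genes with 100 counts or more.

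Most members, called or not, had a positive log2 fold change. It was above 0 for 62 of 86 (72.1%), against 50.6% of all genes and 58.8% of lncRNA genes tested, and its median was 0.25, against 0.01 and 0.18. Among the 60 members whose mean was at least 1 FPKM in both groups, which did not owe their place to 1 group, 42 were above 0 and the median was 0.21, with 5 higher and 0 lower past the threshold. Among the 78 members with no group at or under 3 counts throughout, the median was 0.23. Of the 37 members with 100 counts or more, 32 were above 0. The FPKM values of the groups did not overlap for 24 members with higher and 2 with lower levels in si-CyCoNP, against 24.2% and 16.1% of all genes tested. Those 2, named after their values were seen, were MINDY2-DT and MIF4GD-DT, and neither passed the test.

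**Figure D3:**
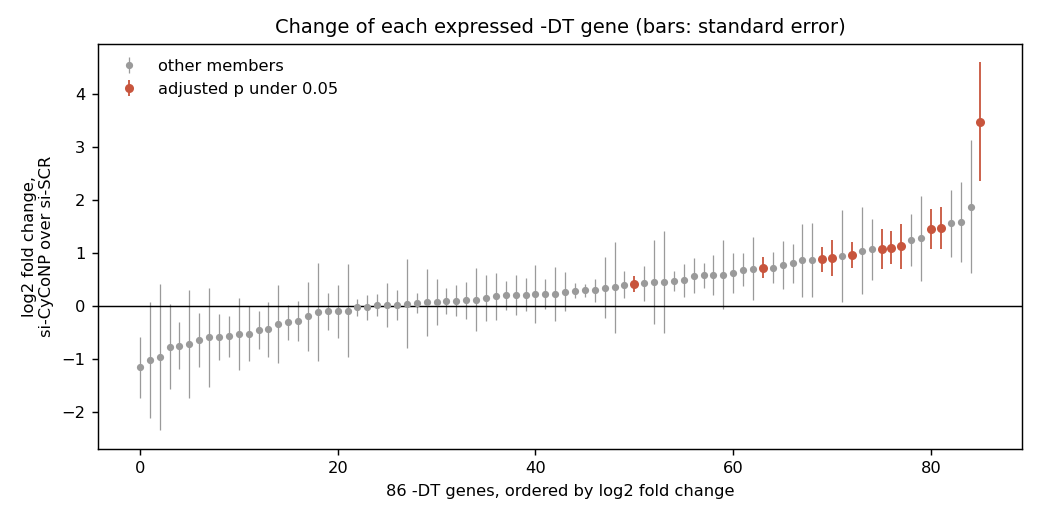
Log2 fold change of si-CyCoNP over si-SCR (y axis) for each of the 86 -DT genes in increasing order (x axis), with bars for the standard error of the edgeR fit and red for an adjusted p under 0.05. The 62 genes above 0 include all 11 red points, and no gene below 0 passed.

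A log2 fold change above 1 together with the adjusted threshold was reached by 6 members (7.0%). The share was 2.28% among all genes tested and 3.52% among the lncRNA genes tested other than members. No member was called below -1, against 2.98% and 2.13%. Among the 60 members with a mean of at least 1 FPKM in both groups, 2 (3.3%) were called higher. That was near the share of the other lncRNA genes. DNAJC3-DT, ZFAND2A-DT, TFIP11-DT and BRINP3-DT had si-SCR means under 1 FPKM and entered the set through their si-CyCoNP values. The 6 were DNAJC3-DT, CENATAC-DT, ZFAND2A-DT, BRINP3-DT, EMSY-DT and TFIP11-DT. Leaving out si-CyCoNP replicate 1 or si-CyCoNP replicate 3 reduced this count to 3, leaving out si-SCR replicate 3 raised it to 10, and DESeq2 gave 3.

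DNAJC3-DT (ENSG00000247400, chr13:95648711-95676973, minus strand) lies beside DNAJC3, a co-chaperone gene of the endoplasmic reticulum. It had 0.778, 0.370 and 0.815 FPKM in si-SCR and 1.16, 2.16 and 2.55 FPKM in si-CyCoNP, so every si-CyCoNP library was higher (log2 fold change 1.46, SE 0.38, edgeR adjusted p = 0.00424). DNAJC3 itself rose less, from 7.12, 7.89 and 11.2 FPKM to 11.4, 12 and 12.9 FPKM (log2 fold change 0.40, adjusted p = 0.0203). ZFAND2A-DT (ENSG00000229043, chr7:1160374-1165607, plus strand) lies beside ZFAND2A, an arsenite-inducible gene whose protein binds the proteasome. It had 0.662, 0.756 and 0.824 FPKM against 1.6, 1.24 and 2.27 FPKM, again with no overlap (log2 fold change 1.11, SE 0.32, adjusted p = 0.00925). ZFAND2A moved in the same direction, from 3.27, 5.01 and 5.04 FPKM to 7.67, 6.08 and 7.72 FPKM (log2 fold change 0.63, adjusted p = 0.0255), and the exons of the pair overlap by 209 bases on opposite strands. EMSY-DT (ENSG00000255135, chr11:76435559-76444690, minus strand) lies beside EMSY, which encodes a BRCA2-binding repressor of transcription. It spread widely in si-SCR, with 1.10, 2.01 and 4.55 FPKM, and lay at 5.52, 6.24 and 5.71 FPKM in si-CyCoNP (log2 fold change 1.08, SE 0.38, adjusted p = 0.0343). The call on EMSY-DT was lost without any 1 library other than si-SCR replicate 3, in DESeq2, and in limma on log2(FPKM + 1) and log2(FPKM + 0.1), with adjusted p up to 0.174.

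CENATAC-DT and TFIP11-DT rose beside partners that did not pass the test. CENATAC-DT (ENSG00000255121, chr11:118994824-118998004, minus strand) had 0.928, 1.41 and 1.11 FPKM in si-SCR and 3.18, 4.06 and 2.88 FPKM in si-CyCoNP, far from overlapping (log2 fold change 1.48, SE 0.40, edgeR adjusted p = 0.00533), and it passed under all 14 alternatives tried. CENATAC, which encodes a splicing factor of the minor spliceosome, had 4.33, 4.89 and 3.97 FPKM against 4.24, 3.78 and 3.96 FPKM, with overlapping groups (log2 fold change -0.20, adjusted p = 0.393). TFIP11-DT (ENSG00000261188, chr22:26512503-26514568, plus strand) had 0.917, 1.31 and 0.514 FPKM against 1.74, 2.08 and 2.37 FPKM (log2 fold change 1.13, SE 0.43, adjusted p = 0.0482). Its groups did not overlap, but it had 5 to 20 counts per library and lost the call under 8 of 14 alternatives. TFIP11, which acts in the disassembly of the spliceosome, had 6.60, 8.56 and 7.92 FPKM against 7.78, 7.92 and 8.16 FPKM.

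BRINP3-DT (ENSG00000237457, chr1:190478551-190480735, plus strand) lies beside BRINP3, a neural gene named for its induction by BMP and retinoic acid. Its si-SCR libraries held 0, 0 and 1 counts, against 7, 5 and 4 after the knock-down (edgeR adjusted p = 0.0192). The call was lost in DESeq2 and without si-SCR replicate 1, si-SCR replicate 2 or si-CyCoNP replicate 1, with adjusted p up to 0.0758. With 1 count against 16, the ratio of the group totals scaled to library size was 15.6, with a 95% counting interval of 2.42 to 653. BRINP3 was below the expression filter at 0.163, 0 and 0 FPKM against 0.195, 0.220 and 0.282 FPKM and was not tested. Because an exon of BRINP3-DT overlaps another gene on its strand, its counts are less certain.

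The other 5 members that rose did so by less than a log2 fold change of 1. Of these, COPB2-DT and TOX-DT had si-SCR means of 0.880 and 0.758 FPKM. Both met the selection rule through their si-CyCoNP values, so their direction is not independent of the selection. BOLA3-DT, beside a gene of mitochondrial iron-sulfur cluster assembly, had 2.19, 2 and 1.40 FPKM in si-SCR and 3.41, 4.29 and 3.04 FPKM in si-CyCoNP (log2 fold change 0.88, edgeR adjusted p = 0.00634), and BOLA3 rose with overlapping groups (log2 fold change 0.52, adjusted p = 0.0332). COPB2-DT, beside a coatomer subunit gene, had 0.956, 0.780 and 0.905 FPKM against 1.89, 1.47 and 1.22 FPKM (log2 fold change 0.73, adjusted p = 0.00502), while COPB2 stood at a log2 fold change of 0.15 (adjusted p = 0.194).

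RAB30-DT and TOX-DT had partners with negative log2 fold changes that did not pass. RAB30-DT, beside the gene of a Golgi GTPase, had 3.98, 2.99 and 3.02 FPKM in si-SCR and 4.61, 5.01 and 4.39 FPKM in si-CyCoNP (log2 fold change 0.42, SE 0.15, edgeR adjusted p = 0.0339), against -0.18 for RAB30. TOX-DT, beside the gene of an HMG-box protein, had 0.481, 0.823 and 0.971 FPKM against 1.51, 1.46 and 1.56 FPKM (log2 fold change 0.91, SE 0.34, adjusted p = 0.0469), against -0.22 for TOX. In both -DT genes every si-CyCoNP library was higher. The call on RAB30-DT was lost in 7 and that on TOX-DT in 9 of the 14 alternatives.

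**Figure D4:**
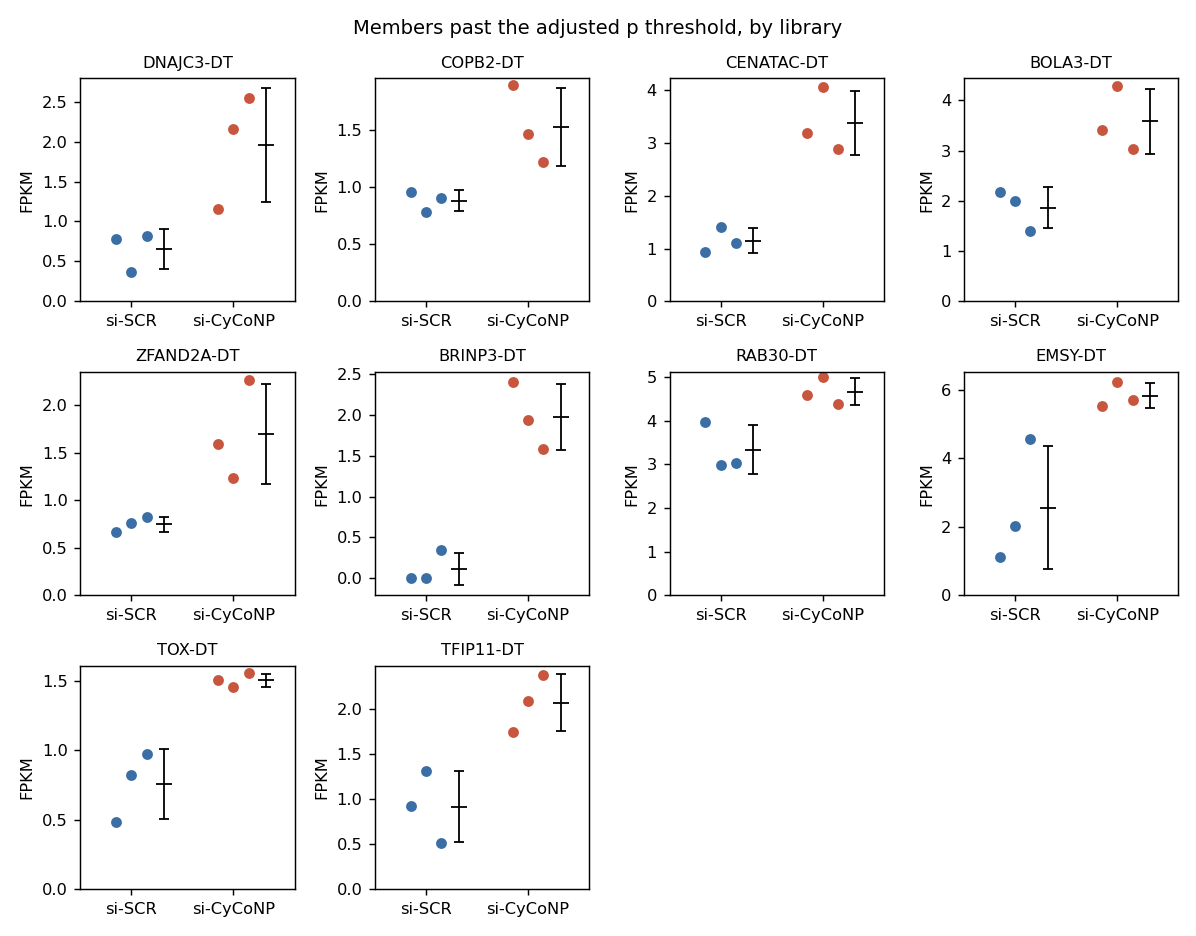
FPKM (y axes) of 10 of the 11 -DT genes past the adjusted p threshold in each si-SCR (blue) and si-CyCoNP (red) library, with the mean and SD of 3 libraries in black. In all 10 panels every si-CyCoNP point lies above every si-SCR point, with EMSY-DT showing the widest si-SCR spread (1.10 to 4.55 FPKM).

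The partner genes did not share the one-sided pattern. Of the 81 partners that passed the expression filter, 17 rose and 12 fell. The shares were 14.2% each way among all genes tested, and 17.3% higher and 18.1% lower among protein-coding genes. The median log2 fold change of the partners was -0.02. It lay between -0.05 and 0.02 when a library was left out and at 0.05 when scaled by library totals alone, so its sign was not stable. The number of partners that rose was 11 without si-CyCoNP replicate 1. Of the 81 partners, 36 (44.4%) had a log2 fold change above 0. The 5 partners below the filter were C16orf95, EPCAM, C2orf74, CHKB and BRINP3, each with a mean under 1 FPKM.

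Of the 29 partners that changed, 24 (82.8%) stood beside a -DT gene that did not pass, near the share over all 81 pairs (87.7%). NECTIN1 rose from 25.1, 22.3 and 36.1 FPKM to 56.7, 60.5 and 55.8 FPKM (log2 fold change 0.98, edgeR adjusted p = 6.67e-08), while NECTIN1-DT had a log2 fold change of 0.02. KIF26A fell from 88.8, 83.4 and 91.5 FPKM to 53.5, 57.2 and 49.3 FPKM (log2 fold change -0.79, adjusted p = 1.31e-08), while KIF26A-DT stood at -0.10. Both partners changed without overlap, and in both pairs the counts of the -DT gene were few, at most 23 in a library. Other partners, picked after their values were seen, were ZKSCAN2 (a zinc finger gene, log2 fold change 0.99), KDM2B (a histone demethylase gene, 0.96), INSIG1 (a sterol sensor gene, 0.91) and HK2 (a hexokinase gene, 0.75) among those that rose, and B4GAT1 (a glycosyltransferase gene, -0.90), CKAP2 (a spindle protein gene, -0.86) and GNB1 (a G protein subunit gene, -0.64) among those that fell. None of their -DT genes passed.

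MINDY2, a deubiquitinase gene, was the single partner called beyond a log2 fold change of 1 in either direction. It fell from 8.94, 7.87 and 8.87 FPKM to 3.57, 3.16 and 3.06 FPKM (log2 fold change -1.46, SE 0.11, edgeR adjusted p = 2.05e-10). MINDY2-DT had 1.50, 1.71 and 1.35 FPKM against 1.04, 0.506 and 0.518 FPKM, all lower than in si-SCR, but rested on 3 to 9 counts per library (log2 fold change -1.15, SE 0.57, adjusted p = 0.145). The difference between both genes of this pair did not pass the test (0.31, SE 0.54, adjusted p = 0.731).

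Whether both genes of a pair changed by different amounts was tested within libraries as the interaction of gene and group, over 1261 pairs of the annotation that included 81 of the members. The -DT gene changed differently from its partner in 8 pairs (9.9%), against 17.6% of all pairs tested. In all 8 the log2 fold change of the -DT gene was the higher, and over the 81 pairs the difference was above 0 in 59 and below in 22, with a median of 0.33. Of the 8, DNAJC3-DT, TFIP11-DT, TOX-DT, GARS1-DT and PRKACB-DT had si-SCR means under 1 FPKM. They met the selection rule through their si-CyCoNP values, so their direction is not independent of the selection. The 81 differences were not counted apart for members with at least 1 FPKM in both groups. The number of differing pairs, not always the same ones, was 3, 4 or 5 when si-CyCoNP replicate 1, 2 or 3 was left out, and 5 when si-SCR replicate 1 was left out. With limma on log2 ratios there were 5. The edgeR fit took both genes of a pair to vary equally between libraries, so it may understate the spread of a scarce -DT gene. For PRKACB-DT, DNAJC3-DT and TFIP11-DT the SE of the difference was below that of the -DT gene in its own test. In the other differing pairs it was above.

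CENATAC-DT differed most surely from its partner, by 1.68 (SE 0.41, edgeR interaction, adjusted p = 0.00534), and this held under all 9 alternatives for pairs. BAIAP2-DT came next with a difference of 1.03 (SE 0.26, adjusted p = 0.00697). Of both genes the partner alone passed its own test: BAIAP2, the gene of an actin-regulating scaffold protein, fell from 3.06, 2.76 and 2.4 FPKM to 1.94, 1.53 and 1.64 FPKM (log2 fold change -0.74, adjusted p = 0.000909), while BAIAP2-DT had 2.68, 2.17 and 2.19 FPKM against 3.93, 2.81 and 2.32 FPKM (0.30, adjusted p = 0.331). GARS1-DT had a difference of 0.59 (SE 0.16, adjusted p = 0.0124), to which both genes contributed equally. GARS1, the glycyl-tRNA synthetase gene, fell from 79.0, 80.4 and 91.5 FPKM to 71.0, 72.2 and 71.3 FPKM (log2 fold change -0.29, adjusted p = 0.00546). GARS1-DT lay at 0.780, 0.951 and 1.08 FPKM against 1.07, 1.45 and 1.11 FPKM, with overlapping groups (log2 fold change 0.29, adjusted p = 0.140).

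RAB30-DT (difference 0.61, adjusted p = 0.0282), DNAJC3-DT (1.05, adjusted p = 0.0364), TFIP11-DT (1.15, adjusted p = 0.0407) and TOX-DT (1.09, adjusted p = 0.0455) were members that rose in their own test. PRKACB-DT, beside the gene of a catalytic subunit of protein kinase A, differed by 1.38 (SE 0.47, edgeR interaction, adjusted p = 0.0421). It had 0.291, 0.830 and 0.784 FPKM in si-SCR and 1.82, 1.03 and 1.36 FPKM in si-CyCoNP, with no overlap and 2 to 14 counts per library. PRKACB had 11.6, 11.3 and 9.88 FPKM against 10.5, 8.15 and 8.85 FPKM (log2 fold change -0.32, adjusted p = 0.0360). Of the 9 alternatives for pairs, the difference was lost in 7 each for PRKACB-DT and TFIP11-DT, 6 each for DNAJC3-DT and TOX-DT, 4 for RAB30-DT, 2 for GARS1-DT and 1 for BAIAP2-DT.

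Both genes of a pair had log2 fold changes of the same sign in 51 of 81 pairs (63.0%), of which 32 were both above and 19 both below 0. In 26 pairs the -DT gene was above and the partner below 0, and in 4 the reverse. Across the 81 pairs the log2 fold changes had a Pearson r of 0.36 and a Spearman rho of 0.33, against 0.16 and 0.14 over the other 1180 pairs tested, where the sign was the same in 54.7%. These are descriptions across gene pairs, which share their libraries and are not independent. Of the 10 members that rose and had a tested partner, 5 had a partner that rose too (DNAJC3, BOLA3, ZFAND2A and EMSY among them) and 5 had a partner that did not pass (COPB2, CENATAC, RAB30, TOX and TFIP11). For the partners that rose, the result was lost in 7 of 14 alternatives for BOLA3, 5 each for DNAJC3 and ZFAND2A, and 1 for EMSY. For the members, it was lost in 2 for DNAJC3-DT, 3 each for ZFAND2A-DT and COPB2-DT, and 1 for BOLA3-DT.

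**Figure D5:**
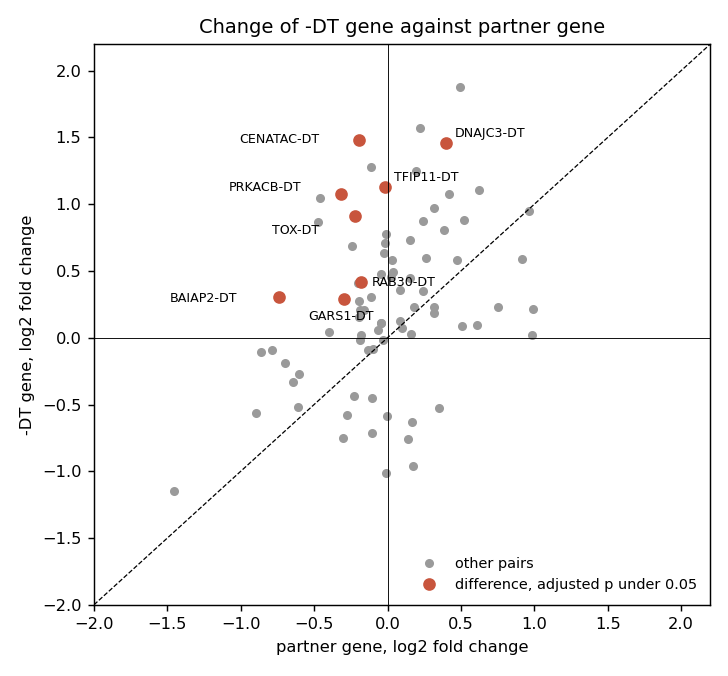
Log2 fold change of the -DT gene (y axis) against that of its partner gene (x axis) for the 81 pairs with both genes tested, with the dashed line where both are equal and red for the 8 pairs whose difference passed the adjusted threshold. All 8 red points lie above the line.

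Upstream RNAs are ended and removed by a known machinery, and its genes were described as a list of 57 written from general knowledge, all of them tested. Of these 13 rose and 3 fell past the adjusted threshold. Among all genes 14.2% passed each way. Among protein-coding genes, as all 57 are, 17.3% rose and 18.1% fell. Of the 57, 40 were above 0, and their median log2 fold change was 0.11, against 0.01 for all genes. Among the 13 nuclear exosome genes only DIS3, a catalytic subunit, rose and only C1D fell. INTS10, a subunit of the Integrator complex that cleaves nascent RNA, rose from 4.82 ± 0.526 to 8.92 ± 0.209 FPKM (SD, n = 3, log2 fold change 0.82, edgeR, adjusted p = 5.85e-06). Within Integrator 4 of 14 subunits rose and none fell, against 17.3% and 18.1% of protein-coding genes. ZC3H18, which links the cap-binding complex to the exosome, had a log2 fold change of 0.65, and SNRPA, a protein of the U1 small nuclear ribonucleoprotein, of 0.51. Those that fell were NCBP1, the large cap-binding subunit, with a log2 fold change of -0.26, C1D, an exosome cofactor, with -0.53, and XRN2, the exonuclease of termination, with -0.22. Of the 6 adaptors that bring RNA to the exosome 2 rose and none fell, against the same shares of protein-coding genes.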

How the data were processed

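RNA from 3 si-SCR and 3 si-CyCoNP samples was sequenced as paired-end, stranded, ribosome-depleted total RNA. Per the labels, the authors used Trimmomatic 0.39, cutadapt 3.2, Bowtie2 2.4.2 and STAR 2.7.7a with GRCh38. The deposited counts are raw fragments per Ensembl gene, counted by STAR. The deposited FPKM values are the same counts scaled by the authors by gene length and library total. The strand setting of the counting is not given in the sources used here. Counts were found for 28.3% of 738 genes nested in an opposite-strand exon and for 6.53% of 903 nested in a same-strand exon. Uniquely mapped fragments alone are counted, so genes with near-identical copies are undercounted, and counts were not corrected for PCR duplicates.

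Groups came from the sample titles. Symbols, gene types and coordinates were taken from GENCODE 44, and the authors' gene models from Ensembl 99 may differ. The 13966 genes whose mean reached 1 FPKM in si-SCR or si-CyCoNP were normalised by TMM and tested with the edgeR 4.0.16 quasi-likelihood test in R 4.3.3, with Benjamini-Hochberg adjustment over all genes tested. A gene passed at an adjusted p under 0.05 and was called at a log2 fold change beyond 1 in addition. Pairs were fitted in edgeR with library, gene and gene by group terms, for annotated pairs with gene ends within 1000 bases and for every member and partner that both passed the filter. Log2 fold changes carry the TMM scaling, while FPKM values do not. The scripts were tested on simulated data.

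The genes named are LINC02381, every member called, members past the threshold with the smallest p (up to 12 per direction), the 10 with the highest level, the 6 pairs with the smallest p for a difference, those at the threshold and their partners, and up to 3 list genes per direction. Others are said to be picked after their values were seen. The values of 1 member that the rule names and of 2 marker genes are not reported here, and they enter only counts and sums. The members and lists were chosen with earlier results of these data known. Alternatives were DESeq2 1.42.0 or its size factors, library totals alone, other filters, limma 3.58.1 on log2(FPKM + 1) and log2(FPKM + 0.1) or on log2 ratios of a pair, pairs within 300 bases, a replicate block, and leaving out each library. Promoters came from RefSeq (GRCh38.p14).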

Additional observations from a re-analysis of the deposited data

How the results depend on the processing

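No change of direction was found among the 48 genes and pairs past the threshold under any alternative: of 631 alternative values 496 stayed past the threshold and 135 did not. In DESeq2 6 members rose and 3 were called higher, against 11 and 6, and with limma on log2(FPKM + 1) 3 were called higher and 7 partners fell, against 12. Limma on log2 ratios gave 5 differing pairs, against 8. Leaving out each library in turn gave 6 to 14 members higher, 0 to 1 lower, 3 to 10 called higher, 0 to 1 called lower, 11 to 18 partners higher and 3 to 8 differing pairs, each fit with fewer libraries in 1 group. LINC02381 stayed lower throughout, between -4.16 and -2.90. The median of the members stayed between 0.22 and 0.44. The replicate numbers were not taken to pair the samples: deviations from the group means correlated by 0.0907, 0.0727 and 0.108 between libraries of the same number, although all 6 libraries correlated best with their own number, as a hint from the data. With the replicate block 14 members rose, 0 fell and 6 were called, 19 partners rose and 18 fell, 8 pairs differed, and LINC02381 stood at -3.78. The default filter of edgeR and no filter both gave 11 members higher. Depth also limits the members: 49 of 86 summed to under 100 counts over the 6 libraries.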

Other observations

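Letters that mark transcript ends and splice sites were searched on the sense strand. The window was the 1000 genomic bases from the outermost annotated start of each gene. This search was chosen after the data had been seen. By their outermost starts 74 of the 86 pairs began within 1000 bases of each other, and the rest were kept in the comparison. The window was not cut at the gene end, so for short -DT genes, such as DHX35-DT (187 bases), it ran past that end. The part of gene length in the shares below was not tested. The polyadenylation signal AATAAA occurred in the windows of 30.2% of the 86 -DT genes and 12.8% of their 86 partners, against 18.4% of 10498 protein-coding genes. It was more frequent on the -DT side in 23 pairs, more frequent on the partner side in 7, and equally frequent in 56. The 5′ splice site letters GGTAAG occurred in the windows of 19.8% of -DT genes, 23.3% of partners and 23.6% of protein-coding genes. A match to these letters is a description of the sequence and does not show that the signal is used.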
